A study of Mus musculus with 16 samples.

Results

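The respiratory chain subunits described here are 41 nuclear genes that encode parts of complexes I to IV of the mitochondrial inner membrane. They were taken as a list by gene name. The rule uses no measured value, but the list was chosen with earlier results of these data known. Each gene was found on the arrays through the RefSeq accession of its probe. The list holds 23 genes of complex I, 4 of complex II, 6 of complex III and 8 of complex IV, among 25193 features tested in all. All 41 passed the filter on dim probes and were well above background on each array that measured them, and none was saturated. The samples were quadriceps of wild-type (WT) mice and of mice that lack Klf15 (KO), a zinc-finger transcription factor that glucocorticoids induce. Mice of each genotype were injected once into the peritoneum with vehicle or with dexamethasone (2 mg/kg), which is a synthetic glucocorticoid, and muscle was taken after 8 h. The 4 groups were vehicle-treated WT, dexamethasone-treated WT, vehicle-treated KO and dexamethasone-treated KO, with 4 animals and 4 arrays in each. The labels used here do not give strain, sex, age or the structure of the KO allele. The labels name no tissue-specific driver for the deletion, and whether other organs also lacked Klf15 is not given.

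Complex I (NADH dehydrogenase) and complex II (succinate dehydrogenase) pass electrons from NADH and succinate to ubiquinone. Complex III (cytochrome bc1) passes them on to cytochrome c and complex IV (cytochrome c oxidase) to oxygen, while complexes I, III and IV pump protons that drive ATP synthesis. Complex II is also an enzyme of the citric acid cycle and has no mitochondrially encoded part. Transcription of the nuclear subunit genes is known to respond to the coactivators PGC-1alpha and PGC-1beta, encoded by Ppargc1a and Ppargc1b, through the factors NRF1, GABPA and the oestrogen-related receptors. Skeletal muscle and heart use their own forms of some complex IV subunits, encoded by Cox6a2, Cox7a1 and Cox8b.

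Spots well above background made up 66.3% to 80.6% of each array. The intensity at the 75th percentile, by which each array was scaled, lay between 537 and 1133. Klf15 itself was 14.8-fold lower on the 8 KO arrays than on the 8 WT arrays, and the highest KO level (0.68) lay under the lowest WT level (2.84). The exact permutation test, two-sided, gave p = 0.0001554, the smallest that 12870 permutations allow. The Klf15 probe rose with dexamethasone in both genotypes, 2.02-fold in WT (adjusted p = 0.023 by limma) and 2.26-fold in KO (adjusted p = 0.010). The source of the signal in KO was not tested. The arrays lay on 8 slides, and arrays of different groups on the same slide deviated together from their group means. Their correlation was above 0.1 in 11 of 11 pairs, from 0.19 to 0.79 with a median of 0.50. For pairs on different slides the median was -0.06, with 28 of 85 above 0.1. KO vehicle replicate 2 and replicates 1 and 3 of dexamethasone-treated WT each lay alone on a slide, and WT dexamethasone replicate 3 was the only array of the second scan date. Dexamethasone-treated WT shared only slide 5 with vehicle-treated WT and only slide 8 with dexamethasone-treated KO. Vehicle-treated KO shared slides 4, 6 and 7 with dexamethasone-treated KO and with vehicle-treated WT. The main fit held no slide term, so that comparisons with dexamethasone-treated WT can hardly be told apart from differences between slides. Markers of neutrophils, 9 of 9 of which were tested, had a median of 7.11 on WT dexamethasone replicate 3 and one of 5.72 on the first KO dexamethasone replicate, relative to the mean of all arrays (log2). Their medians lay between -1.37 and -0.44 in vehicle-treated WT, -1.65 and 7.11 in dexamethasone-treated WT, -1.43 and -0.68 in vehicle-treated KO and -2.02 and 5.72 in dexamethasone-treated KO. Erythroid markers, 4 of 5 of which were tested, were highest on the same 2 arrays, with medians of 1.84 and 1.43, and lay between -0.94 and 0.44 on the others. All 10 listed skeletal muscle markers were measured above the filter. In whole muscle, fewer cells of a type and less RNA per cell cannot be told apart.

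The regions upstream of the subunit genes on which the results below turn are given first, because these genes are studied as targets of common regulators. RefSeq promoters (GRCm38.p6, 250 bases before to 50 after the start site) were found for 30 of the 41 genes. The 250 bases upstream of Sdha, Ndufa9, Ndufs4 and Sdhb read as follows, 5′ to 3′ in the direction of the gene, with matches to the NRF1 consensus, searched on both strands, in capitals.
Sdha (chr13:74350241-74350490, minus strand): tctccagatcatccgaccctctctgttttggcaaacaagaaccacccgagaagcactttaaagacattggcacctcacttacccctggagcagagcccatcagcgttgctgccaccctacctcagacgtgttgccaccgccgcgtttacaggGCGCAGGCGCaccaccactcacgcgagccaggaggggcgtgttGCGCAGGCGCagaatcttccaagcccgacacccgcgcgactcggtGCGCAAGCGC
Ndufa9 (chr6:126849145-126849394, minus strand): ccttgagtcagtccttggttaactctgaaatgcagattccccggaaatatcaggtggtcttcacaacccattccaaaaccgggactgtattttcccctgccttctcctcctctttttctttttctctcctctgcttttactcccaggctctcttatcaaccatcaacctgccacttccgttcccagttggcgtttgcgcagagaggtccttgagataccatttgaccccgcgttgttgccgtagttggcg
Ndufs4 (chr13:114388095-114388344, minus strand): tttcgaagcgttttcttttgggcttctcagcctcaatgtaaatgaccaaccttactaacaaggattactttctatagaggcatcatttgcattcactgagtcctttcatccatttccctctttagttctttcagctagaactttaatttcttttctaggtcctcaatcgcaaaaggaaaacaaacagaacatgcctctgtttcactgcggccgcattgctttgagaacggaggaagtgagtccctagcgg
Sdhb (chr4:140961021-140961270, plus strand): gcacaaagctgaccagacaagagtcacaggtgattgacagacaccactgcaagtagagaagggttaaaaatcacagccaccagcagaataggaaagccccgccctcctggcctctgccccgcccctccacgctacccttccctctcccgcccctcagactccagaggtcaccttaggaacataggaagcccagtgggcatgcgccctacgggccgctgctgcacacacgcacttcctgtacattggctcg
Sdha, the flavoprotein subunit of succinate dehydrogenase, had 3 NRF1 matches, whose first bases lay at -98, -55 and -10 from the start site, and the 3 other genes had none in this window. Over all subunit promoters 6 of 30 genes (20%) held the NRF1 motif, against 5.188% of 27025 genes with a promoter in the table. The median GC content was 60% for the subunit promoters and 52.7% for all promoters, and the part of base composition in this difference was not tested.

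The other matches are shown as windows of 30 bases with the motif in capitals. They are the NRF1 matches of Ndufa8, Ndufa5, Sdhd, Uqcrc1 (the first of 2) and Ndufa6, the single match to the oestrogen-related receptor motif TCAAGGTCA in Sdhd, the single match to the GABPA motif CCGGAAGT in Ndufs3, and the single match to the KLF motif GGGTGTGG in Ndufb7, some of which read on the opposite strand.
Ndufa8, NRF1 (chr2:36049349-36049378, minus strand): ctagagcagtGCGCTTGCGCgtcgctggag
Ndufa5, NRF1 (chr6:24527697-24527726, minus strand): tgtgtgagctGCGCAGGCGCaaatctacct
Sdhd, NRF1 (chr9:50603909-50603938, minus strand): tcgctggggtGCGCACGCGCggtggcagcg
Uqcrc1, NRF1 (chr9:108936643-108936672, plus strand): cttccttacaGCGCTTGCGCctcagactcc
Ndufa6, NRF1 (chr15:82354249-82354278, minus strand): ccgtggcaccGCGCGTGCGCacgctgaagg
Sdhd, ERR (chr9:50603800-50603829, minus strand): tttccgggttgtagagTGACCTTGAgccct
Ndufs3, GABPA (chr2:90904703-90904732, minus strand): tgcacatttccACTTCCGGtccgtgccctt
Ndufb7, KLF (chr8:83566565-83566594, plus strand): cctccccgcttCCACACCCgcactcctccc
Each of these 3 last motifs was in 1 of 30 subunit genes (3.33%), against 0.466% of all genes for the oestrogen-related receptor motif, 4.307% for GABPA and 4.093% for KLF. Neither the full palindromic glucocorticoid receptor motif nor a looser form of it was found on either strand in a subunit promoter, and they were in 0.011% and 0.537% of all genes. A match is a string of letters and shows no binding, and a window without one says nothing about sites elsewhere.

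Transcript levels of each subunit gene varied over a limited range across the 16 animals. Each level is the log2 signal of a gene's probe minus the 75th percentile of its array, so that differences are log2 ratios between groups and levels of different genes cannot be ranked. The spread within groups (SD) was between 0.10 for Uqcrc1, a core protein of complex III, and 0.25 for Cyc1, the cytochrome c1 of that complex, with a median of 0.15. The median over all features tested was 0.28, but these include probes well above background on as few as 4 of the 16 arrays. The comparison was not matched for signal. Over all 16 arrays 40 of the 41 genes spanned less than 1 log2 unit, and the exception was Cox6a2, with a span of 1.13. With 4 animals a group the intervals of the main fit were narrow. They treat the arrays as independent and leave out the choice of scaling. For dexamethasone against vehicle the 95% interval lay within 1.5-fold in either direction for 40 of 41 genes in WT and 40 of 41 in KO. The shares over all features were 37.3% and 37.7%. For KO against WT it did so for 40 genes under vehicle and 37 under dexamethasone, beside 47.8% and 43.1% of all features.

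**Figure D1:**
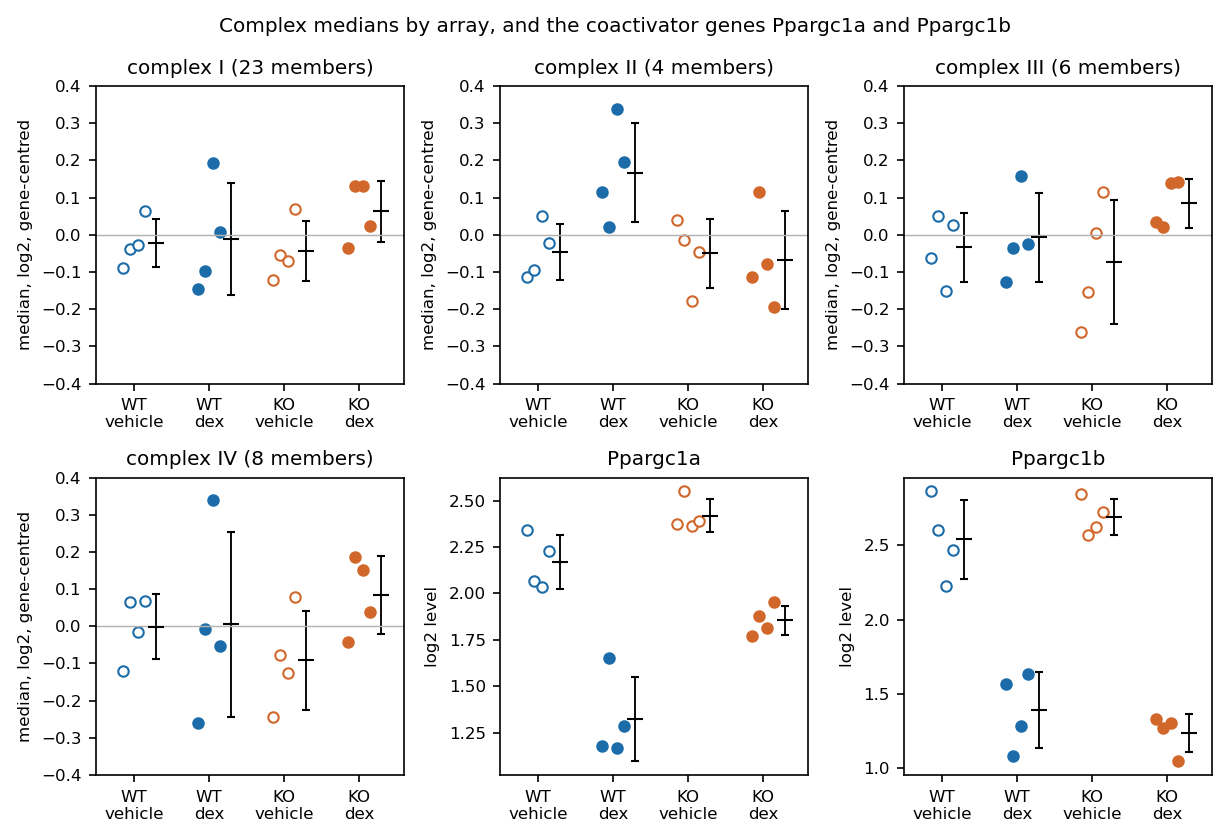
Medians over the subunits of each complex on every array (log2, each gene centred on its mean over 16 arrays) and the log2 levels of Ppargc1a and Ppargc1b, with open points for vehicle, filled points for dexamethasone, blue for WT and orange for KO, and the mean ± SD of 4 arrays beside them. The complex medians stay between -0.26 and 0.34, with WT dexamethasone replicate 3 highest in its group in all 4 complexes, while every dexamethasone array lies below every vehicle array of its genotype for both coactivator genes.

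In WT muscle 2 of the 41 subunit genes rose with dexamethasone and none fell, where 10.8% of all features were called, 5.09% as higher and 5.66% as lower (limma, adjusted p below 0.05). Sdha rose 1.33-fold and Ndufa9, an accessory subunit at the quinone end of the peripheral arm of complex I, rose 1.28-fold. The median over the 41 genes was a log2 difference of 0.04, beside -0.07 over all features, and 32 of the 41 differed by less than 1.1-fold. The sign of that median, and its order against all features, depended on the scaling of the arrays. It was 0.28 (all features 0.17) with median scaling and -0.05 (-0.01) with quantile normalization. With normexp background correction it was -0.03 (0.13), and in the deposited log2 values -0.06 (-0.0074). At an unadjusted p below 0.05 there were 4 subunit genes, all higher, a share of 9.76% beside 24.2% of all features.

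Sdha stood at 5.33, 5.36, 5.67 and 5.50 on the vehicle-treated WT arrays and at 5.92, 5.79, 5.94 and 5.85 on the dexamethasone-treated ones, replicates 1 to 4. All 4 treated animals were above all 4 controls. The log2 difference was 0.41 (SE 0.12, adjusted p = 0.039 by limma), with a 95% interval from 0.16 to 0.66. A second Sdha probe gave 0.42 (SE 0.10, adjusted p = 0.012). Within slide 5, which held 1 array of each WT group, the difference was 0.29. The direction held in all 28 other settings tried, and the call in 4 of 10 planned ones and in 8 of the 16 fits without 1 array, with adjusted p up to 0.118 there. It was lost without any 1 of WT vehicle replicates 1, 2 or 4, WT dexamethasone replicates 1, 3 or 4, KO vehicle replicate 2 or KO dexamethasone replicate 3, at differences of 0.36 to 0.42. The normexp background correction gave the highest adjusted p, 0.99.

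Ndufa9 stood at 5.63, 5.76, 5.98 and 6.03 under vehicle and at 6.29, 6.26, 6.27 and 5.99 after dexamethasone. The first 3 treated animals were above all controls and replicate 4 lay within their range. The log2 difference was 0.35 (SE 0.11, adjusted p = 0.048), and within slide 5 it was 0.23. The call was kept in 4 of 10 planned settings and in 3 of the 16 fits without 1 array, namely without WT vehicle replicates 3 or 4 or WT dexamethasone replicate 4. Without each other array the difference was 0.28 to 0.35, with adjusted p from 0.051 to 0.141. Ndufs4, an accessory subunit needed for the assembly of the NADH-oxidising part of complex I, stood at 5.65, 5.75, 5.90 and 5.84 under vehicle and at 6.28, 5.86, 6.07 and 6.13 after dexamethasone. Its log2 difference of 0.30 (SE 0.11) missed the threshold (adjusted p = 0.087). Ndufa4, named as a complex I gene but since assigned to complex IV, did not overlap between the groups, with 6.53, 6.57, 6.69 and 6.67 under vehicle and 6.88, 6.83, 6.72 and 7.01 after dexamethasone. Its difference was 0.25 (SE 0.10, adjusted p = 0.152). Groups that do not overlap were seen for 2 subunit genes, Sdha and Ndufa4, and for 17.1% of all features.

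No other subunit of complex I was called in WT. The lowest was Ndufc1, a small accessory subunit, at -0.25 (SE 0.14, adjusted p = 0.324), and the flavoprotein genes Ndufv1 and Ndufv2 and the iron-sulfur genes Ndufs1, Ndufs3, Ndufs7 and Ndufs8 all lay between -0.03 and 0.11. In complex II the differences ran from 0.07 for Sdhc, a membrane anchor, to 0.41 for Sdha. In complex III they ran from -0.05 for the Rieske iron-sulfur protein gene Uqcrfs1 to 0.08 for the core protein gene Uqcrc2. The Uqcrc2 spot of WT dexamethasone replicate 1 was marked as an outlier and dropped, so that this group had n = 3 for it. In complex IV they ran from -0.14 for Cox8b to 0.13 for Cox7b. No gene listed under complexes III or IV was called in WT (limma, smallest adjusted p 0.763 and 0.482), and at an unadjusted p below 0.05 there were 0 of 6 and 0 of 8. All counts and medians by complex keep Ndufa4 in complex I, and its limma p in WT was 0.030 (adjusted p = 0.152).

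**Figure D2:**
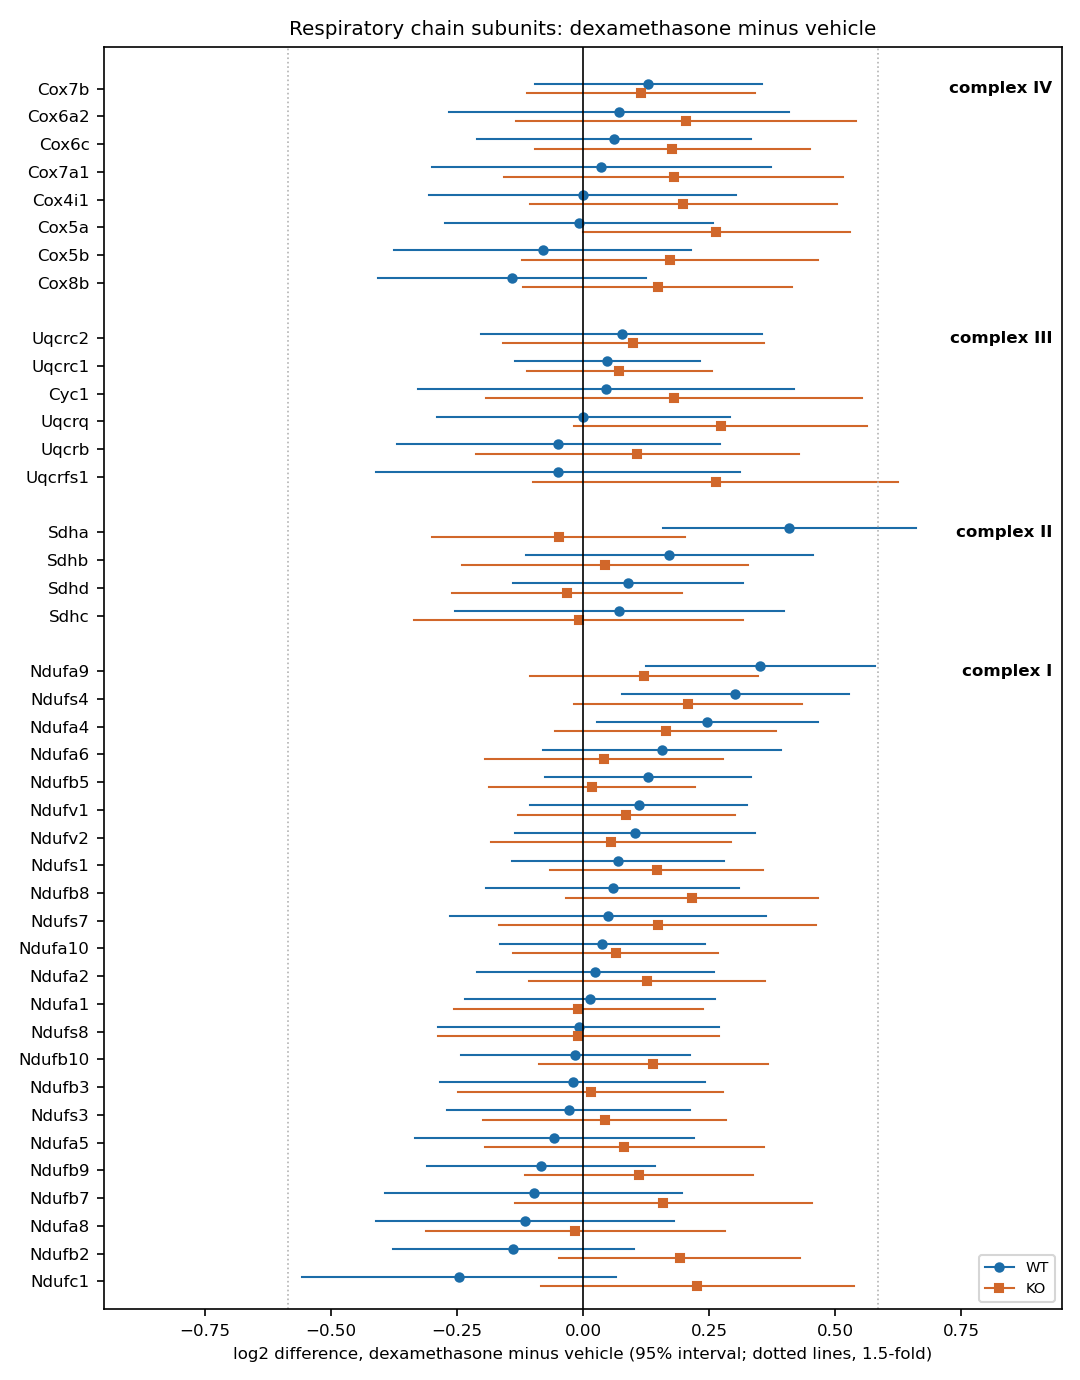
Log2 difference of dexamethasone minus vehicle for each of the 41 subunit genes, by complex, in WT (blue circles) and KO (orange squares), with 95% intervals from the limma fit of 4 arrays a group and dotted lines at 1.5-fold. Sdha and Ndufa9 are the 2 genes called in WT, at 0.41 and 0.35, and all 41 KO intervals include 0.

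In KO muscle none of the 41 genes was called (limma), at an unadjusted p below 0.05 there were also 0 (21.0% of all features), and 10% of all features were called in the same comparison, 5.31% as higher and 4.73% as lower. The median log2 difference was 0.12, beside 0.07 over all features. Of the 41 point estimates 35 were above 0, but that count depended on the scaling of the arrays. It was 30 with median scaling, 28 with normexp background correction, 17 with quantile normalization and 19 in the deposited log2 values. The smallest p belonged to Cox5a, a nuclear subunit on the matrix side of complex IV, with 7.67, 7.89, 7.88 and 8.04 under vehicle and 7.98, 8.17, 8.19 and 8.21 after dexamethasone. The groups overlapped only between KO vehicle replicate 4 and KO dexamethasone replicate 1, and the log2 difference was 0.26 (SE 0.12, adjusted p = 0.240). Uqcrq, a small complex III subunit, differed by 0.27 (SE 0.13, adjusted p = 0.278) and Ndufs4 by 0.21 (SE 0.11, adjusted p = 0.291).

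Sdha in KO muscle stood at 5.80, 5.59, 5.34 and 5.57 under vehicle and at 5.43, 5.77, 5.51 and 5.39 after dexamethasone. The groups overlapped widely, and the difference was -0.05 (SE 0.12, adjusted p = 0.895). The second probe gave -0.16 (SE 0.10, adjusted p = 0.424). Ndufb2 and Ndufb8, accessory subunits of the membrane arm of complex I, did not overlap between the KO groups, at 0.19 (SE 0.11, adjusted p = 0.385) and 0.22 (SE 0.12, adjusted p = 0.335), where 15.7% of all features did not overlap. The KO comparison differed between slides. The median over the subunits was -0.10 within slide 4, 0.10 within slide 6 and 0.31 within slide 7, with 7, 32 and 39 of the 41 genes above 0. KO dexamethasone replicate 1, the array with raised neutrophil markers, lay on slide 4, and the part of those markers in this was not tested.

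**Figure D3:**
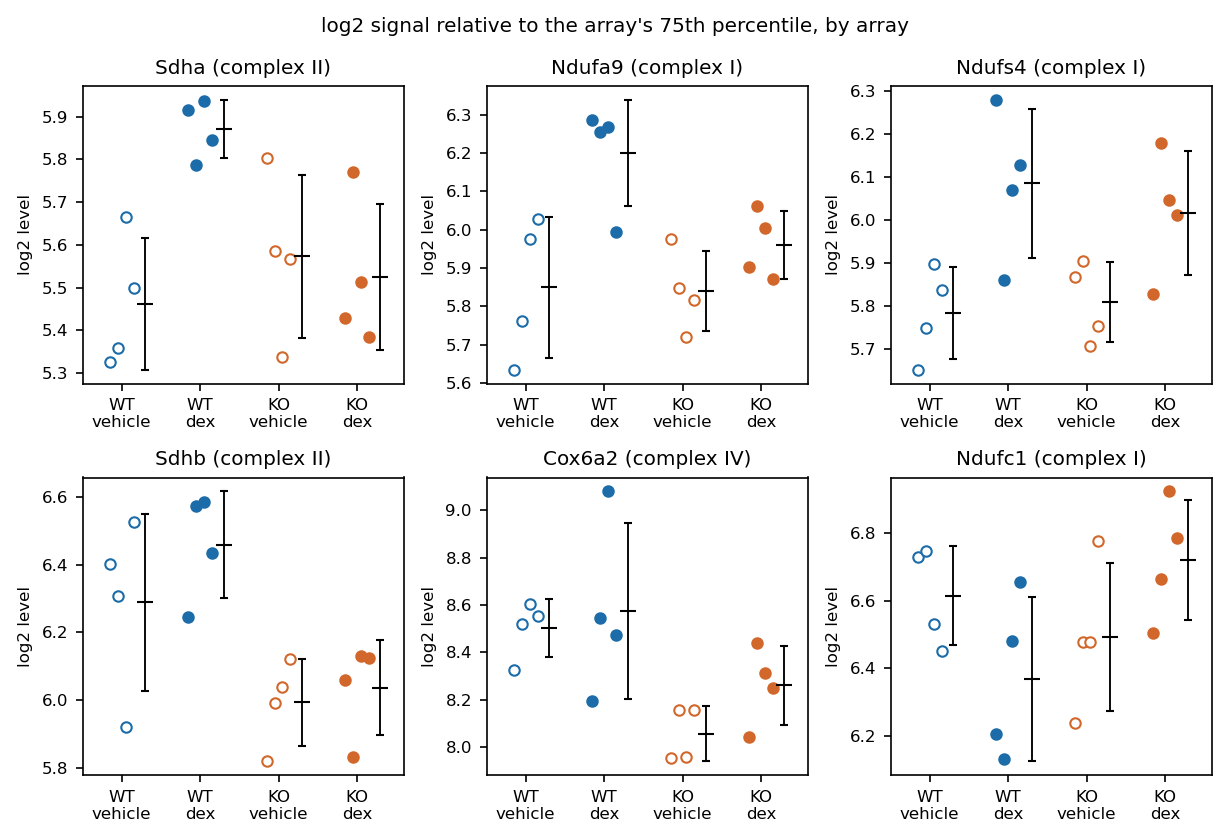
Log2 level on every array for 6 subunit genes, with open points for vehicle, filled points for dexamethasone, blue for WT and orange for KO, and the mean ± SD of 4 arrays beside each group. Sdha is higher on all 4 dexamethasone-treated WT arrays than on the vehicle-treated ones and overlaps in KO, and the Sdhb arrays of KO and WT overlap under vehicle and those of Cox6a2 under dexamethasone, with neither gene called between the genotypes.

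Whether the response to dexamethasone differed between the genotypes was tested by the interaction, in which no subunit gene and 0% of all features passed (limma, smallest adjusted p among the subunits 0.338). At an unadjusted p below 0.05 there were 2 of 41, beside 11.4% of all features. They were Sdha, with an estimate of KO minus WT response below 0 (-0.46, SE 0.16, adjusted p = 0.338, and -0.58, SE 0.14, adjusted p = 0.189 with the second probe), and Ndufc1, with an estimate above 0 (0.47, SE 0.20, adjusted p = 0.409). Ndufc1 stood at 6.73, 6.75, 6.53 and 6.45 in vehicle-treated WT and at 6.20, 6.13, 6.48 and 6.65 in dexamethasone-treated WT. In KO it stood at 6.24, 6.48, 6.48 and 6.77 under vehicle and at 6.50, 6.66, 6.92 and 6.78 after dexamethasone. Ndufb2, the next by p, had an interaction of 0.33 (SE 0.16, adjusted p = 0.445). Intervals of the interaction were wider, and 27 of 41 lay within 1.5-fold, beside 25.9% of all features. Smaller differences between the genotypes were thus not resolved with 4 animals a group.

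The succinate dehydrogenase genes of complex II had estimates above 0 in WT and near 0 in KO, and that the complex differs from the others was not tested. Its median response was 0.13 in WT, where all 4 genes were above 0, and -0.02 in KO, where 1 of 4 was. The interaction was below 0 for all 4 genes, from -0.46 for Sdha to -0.08 for Sdhc, with a median of -0.12. The medians of the other complexes were 0.07 for complex I, 0.15 for complex III and 0.17 for complex IV, and that over all features was 0.11. The complex II interaction stayed below 0 under the other scalings, at -0.42 with median scaling, -0.16 with quantile normalization, -0.10 with normexp and -0.12 in the deposited values. The medians of complexes III and IV were above 0 except with median scaling (-0.15 and -0.13), and that of complex I was below 0 with median scaling, normexp and the deposited values. No gene of complex II passed the interaction, and the complex holds only 4 genes.

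Averaged over both genotypes, 2 subunit genes rose with dexamethasone and none fell, where 17.2% of all features were called, 8.79% as higher and 8.4% as lower. Ndufs4 rose by 0.26 (1.19-fold, SE 0.07, adjusted p = 0.029 by limma). In KO it stood at 5.87, 5.91, 5.71 and 5.75 under vehicle and at 5.83, 6.18, 6.05 and 6.01 after dexamethasone, and in KO as in WT 3 of 4 treated animals were above all controls. Ndufa9 rose by 0.24 (1.18-fold, SE 0.07, adjusted p = 0.043). In KO it stood at 5.98, 5.85, 5.72 and 5.82 under vehicle and at 5.90, 6.06, 6.01 and 5.87 after dexamethasone, with overlap. Ndufa4 (0.21, SE 0.07, adjusted p = 0.069) and Sdha (0.18, SE 0.08, adjusted p = 0.176) did not pass. Both calls were kept in 3 of 10 planned settings (the filter on all 16 arrays, slide as a random block and the mean of probes). They were lost with median scaling, quantile normalization, normexp, the deposited values, no filter on dim probes, the replicate block and slide as a fixed block, which gave adjusted p = 0.223 for Ndufs4 and 0.168 for Ndufa9. Of the 16 fits without 1 array, Ndufs4 was called in 8 (adjusted p up to 0.062, lost without WT vehicle replicates 1 or 2, KO vehicle replicates 3 or 4, WT dexamethasone replicates 1 or 4 or KO dexamethasone replicates 2 or 3, at 0.22 to 0.25) and Ndufa9 in 4 (adjusted p up to 0.091, kept without WT vehicle replicates 3 or 4, KO vehicle replicate 1 or WT dexamethasone replicate 4, and at 0.20 to 0.25 where it was lost). All 41 intervals of the averaged comparison lay within 1.5-fold, beside 49.5% of all features. With the 3 arrays alone on a slide left out no gene was called, and Ndufs4 stood at 0.23 (adjusted p = 0.111).

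Between the genotypes no subunit gene was called (limma) under vehicle, where 0.258% of all features were. None was called under dexamethasone, where 1.83% of features were (0.957% higher and 0.873% lower in KO), or averaged over treatments, where 1.34% were (0.369% higher and 0.969% lower). At an unadjusted p below 0.05 there were 2, 4 and 2 of 41, and the shares of all features at that p were 7.03%, 13.9% and 10.8%. The medians over the 41 genes were -0.01, 0.05 and 0.01, beside -0.08, 0.05 and -0.01 over all features. Within complexes the estimates under vehicle ran from -0.16 (Ndufb2) to 0.10 (Ndufa6) in complex I and from -0.14 (Uqcrfs1) to 0.06 (Uqcrb) in complex III, and under dexamethasone complex III ran from 0.01 (Uqcrc1) to 0.21 (Uqcrb). The smallest p belonged to Cox6a2 under vehicle and to Sdhb under dexamethasone and in the average, with estimates below 0.

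Sdhb, the iron-sulfur subunit of succinate dehydrogenase, stood at 6.40, 6.31, 5.92 and 6.53 in vehicle-treated WT and at 5.82, 5.99, 6.04 and 6.12 in vehicle-treated KO. WT vehicle replicate 3 lay within the KO range. After dexamethasone it stood at 6.24, 6.57, 6.58 and 6.44 in WT and at 6.06, 5.83, 6.13 and 6.13 in KO, with all KO animals below all WT animals. The log2 differences of KO minus WT were -0.30 (SE 0.13, adjusted p = 0.688) under vehicle and -0.42 (SE 0.13, adjusted p = 0.143) under dexamethasone. Averaged over treatments the difference was -0.36, or 1.28-fold lower (SE 0.09, adjusted p = 0.092), with a 95% interval from -0.56 to -0.16. It was below 0 in all 28 other settings and was called in 2, at -0.42 without WT vehicle replicate 3 and at -0.30 with slide as a random block (adjusted p = 0.020). The vehicle difference was -0.18 within slide 4, -0.36 within slide 6 and -0.10 within slide 7. The difference after dexamethasone was -0.31 within slide 8.

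Cox6a2, the muscle form of subunit VIa of cytochrome c oxidase, stood at 8.33, 8.52, 8.61 and 8.55 in vehicle-treated WT and at 7.95, 8.16, 7.96 and 8.16 in vehicle-treated KO. All KO animals were below all WT animals. After dexamethasone it stood at 8.19, 8.54, 9.08 and 8.48 in WT and at 8.04, 8.44, 8.31 and 8.25 in KO, and WT dexamethasone replicate 1 lay within the KO range. The differences were -0.45 (SE 0.16, adjusted p = 0.508) under vehicle and -0.31 (SE 0.16, adjusted p = 0.410) under dexamethasone. Averaged over treatments it was -0.38, or 1.30-fold lower (SE 0.11, adjusted p = 0.153). It was called with quantile normalization (-0.32, adjusted p = 0.0051) and in the deposited log2 values (-0.34, adjusted p = 0.0073). Within slides it was -0.36, -0.37 and -0.65 under vehicle and -0.16 under dexamethasone. Groups that do not overlap were seen for 2 genes under vehicle, Cox6a2 and Ndufb2, both lower in KO, where 6.1% of all features did not overlap.

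Sdha was lower in dexamethasone-treated KO than in dexamethasone-treated WT on every array, with a log2 difference of -0.35 (SE 0.12, adjusted p = 0.179), and -0.33 with the second probe (SE 0.10, adjusted p = 0.113). Under vehicle the difference was 0.11 (SE 0.12, adjusted p = 0.877). The difference under dexamethasone was called with the mean of both probes (-0.34, adjusted p = 0.039) and with slide as a random block (-0.32, adjusted p = 0.038), and within slide 8 it was -0.33. Sdha and Sdhb were the 2 genes that did not overlap between the dexamethasone-treated groups, where 8.01% of all features did not. The other succinate dehydrogenase genes, Sdhc and Sdhd, which encode the membrane anchors, differed by -0.04 and -0.09 under dexamethasone and by 0.04 and 0.03 under vehicle. Ndufc1 was the highest of all subunits under dexamethasone, at 0.35 (SE 0.14, adjusted p = 0.291), and Ndufa9 the lowest of complex I, at -0.24 (SE 0.11, adjusted p = 0.325).

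**Figure D4:**
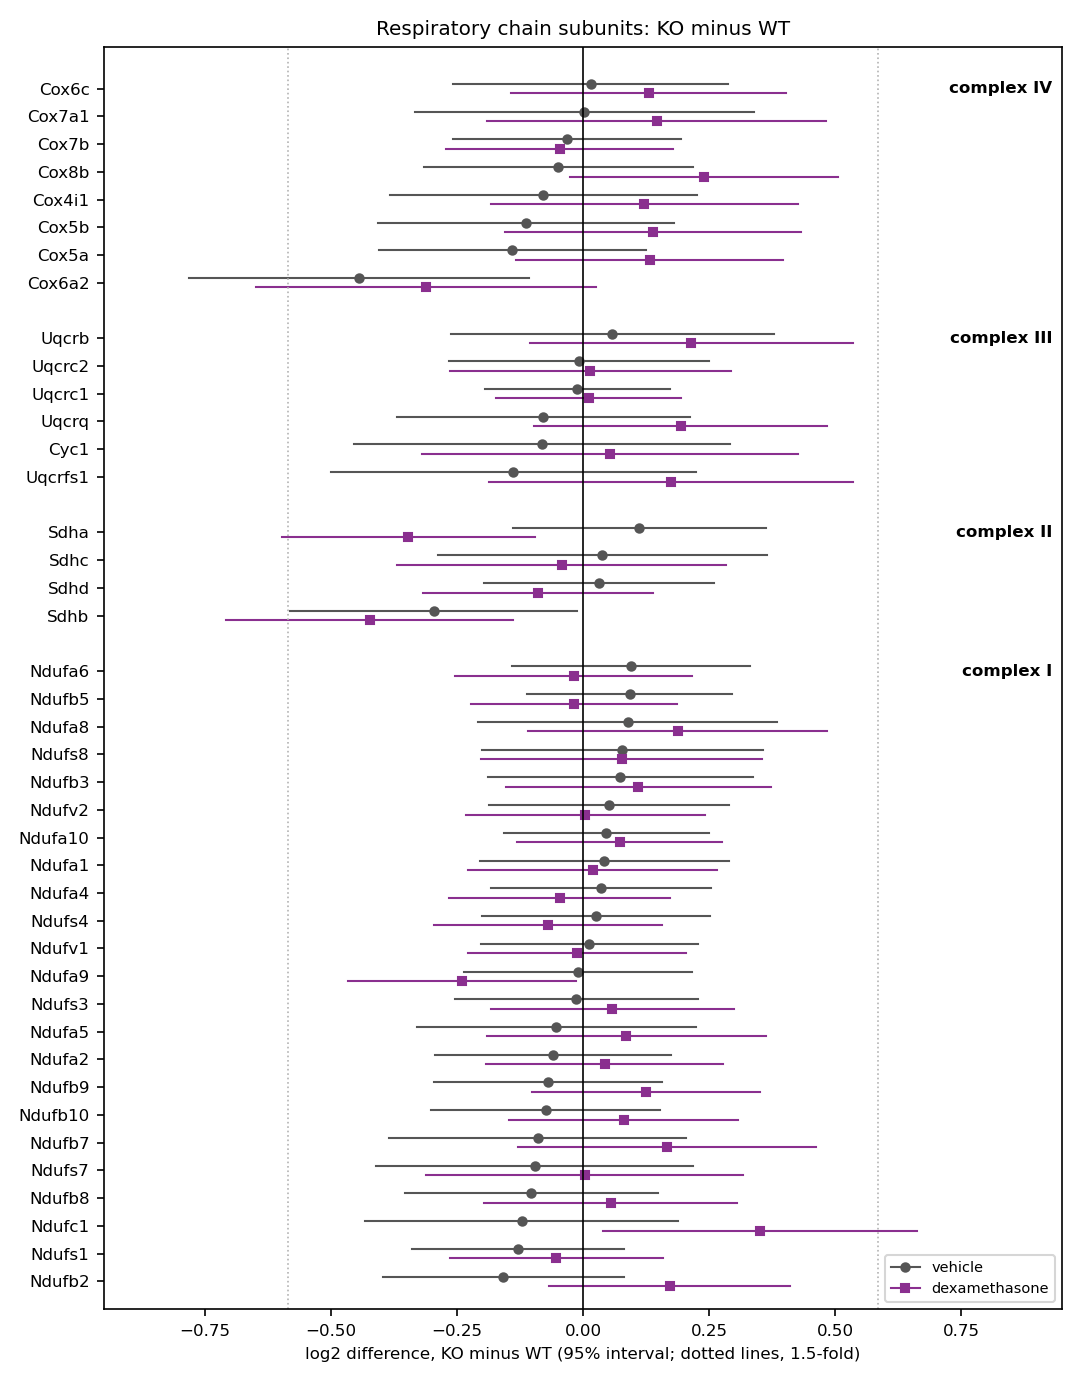
Log2 difference of KO minus WT for each of the 41 subunit genes, by complex, under vehicle (grey circles) and dexamethasone (purple squares), with 95% intervals from the limma fit of 4 arrays a group and dotted lines at 1.5-fold. Cox6a2 is lowest under vehicle at -0.45 and Sdhb under dexamethasone at -0.42, and no gene is called.

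The muscle forms of complex IV subunits had differences of either sign. Between KO and WT under vehicle, Cox6a2 was at -0.45, Cox7a1 at 0.0023 (SE 0.16, adjusted p = 0.9998) and Cox8b at -0.05 (SE 0.12, adjusted p = 0.974). Under dexamethasone they were at -0.31, 0.15 and 0.24. Their widely expressed counterparts, Cox6a1, Cox7a2 and Cox8a, were at 0.07, 0.13 and 0.05 under vehicle and at 0.25, 0.25 and -0.03 under dexamethasone, and none was called. With dexamethasone in WT, Cox7a1 stood at 7.77, 8.03, 8.24 and 8.15 under vehicle and at 7.90, 7.92, 8.54 and 7.98 after treatment. Cox8b stood at 7.96, 8.07, 7.98 and 8.07 under vehicle and at 7.58, 7.87, 8.15 and 7.93 after treatment. In both genes the treated group held the highest WT value, on replicate 3, and its other values lay within or below the control range. The differences were 0.04 (SE 0.16, adjusted p = 0.921) and -0.14 (SE 0.12, adjusted p = 0.519).

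On single arrays many subunits deviated together. WT dexamethasone replicate 3 was the highest of its group for 31 of the 41 genes and the highest of all 16 arrays for 20. Its median was 0.19 in complex I, 0.34 in complex II, 0.16 in complex III and 0.34 in complex IV, relative to the mean of all arrays. The same array had medians of 0.62 for fast-fibre contractile genes, 0.25 for skeletal muscle markers and 7.11 for neutrophil markers, and the part of these in the subunit levels was not tested. WT vehicle replicate 1 was the lowest of its group for 22 genes, KO vehicle replicate 1 for 21 and WT dexamethasone replicate 1 for 20. KO vehicle replicate 4 was the highest of its group for 25 genes and KO dexamethasone replicate 2 for 21. All 4 complex medians were above the mean on KO dexamethasone replicate 2 and on WT dexamethasone replicate 3, and all 4 were below it on WT vehicle replicate 1 and KO vehicle replicate 2. Without WT dexamethasone replicate 3 the median difference over the 41 genes in WT was -0.05 in place of 0.04. With both arrays of raised neutrophil markers left out, Sdha stood at 0.39 (adjusted p = 0.102) and Ndufa9 at 0.33 (adjusted p = 0.126) in WT, and no subunit gene was called there. Slow-fibre contractile genes varied more between arrays than the subunits did, with array medians from -1.28 to 1.91, and 0 of 10 were called in any comparison. Their medians lay between -1.28 and 0.63 in vehicle-treated WT and between -0.27 and 1.91 in dexamethasone-treated WT. In KO they lay between -0.95 and 0.90 under vehicle and between -0.88 and 1.31 after dexamethasone. The part of fibre type in the subunit values was not tested. Of other cell types, 4 of 9 macrophage markers fell with dexamethasone in WT, led by Aif1 (8.26-fold, SE 0.40 on the log2 scale, adjusted p = 0.00034), and Aif1 alone did in KO. In KO 4 of 7 endothelial markers fell, led by Tek (1.93-fold, SE 0.14, adjusted p = 0.00064), and none was called in WT. Averaged over both genotypes, the macrophage markers Adgre1, Csf1r, C1qc and Aif1 and the endothelial markers Kdr and Tek were called lower. No feature passed the interaction, so these calls do not show that the genotypes differed. Among 7 fibroblast markers Lum fell in both genotypes, among 8 adipocyte markers Lep rose in both, and 1 of 7 heart markers, Tnni3, and 1 of 10 skeletal muscle markers, Neb, fell in WT. No neutrophil, erythroid, nerve or fast-fibre gene was called with dexamethasone in WT or in KO. The part of these cell types in the subunit values was not tested.

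Both PGC-1 coactivator genes fell with dexamethasone in both genotypes. Ppargc1a stood at 2.34, 2.06, 2.03 and 2.23 in vehicle-treated WT and at 1.18, 1.65, 1.17 and 1.28 after dexamethasone. In KO it stood at 2.37, 2.55, 2.36 and 2.39 under vehicle and at 1.77, 1.88, 1.81 and 1.95 after dexamethasone. It fell 1.80-fold in WT (log2 difference -0.85, SE 0.11, adjusted p = 0.00038 by limma) and 1.48-fold in KO (-0.56, SE 0.11, adjusted p = 0.0055), with every treated animal below every control. Each of these calls was kept in 11 of 12 other settings and lost with normexp background correction. Ppargc1b fell 2.22-fold in WT (-1.15, SE 0.15, adjusted p = 0.00028) and 2.74-fold in KO (-1.45, SE 0.15, adjusted p = 3.6e-05), again with no overlap. After dexamethasone Ppargc1a was 1.45-fold higher in KO than in WT (0.53, SE 0.11, adjusted p = 0.028), a call kept in 5 of 12 other settings and in 9 of the 16 fits without 1 array. Nrf1, the gene of the factor NRF1, rose 1.28-fold in WT (0.36, SE 0.10, adjusted p = 0.034), a call lost in 7 of 12 other settings. Its mean level went from -2.28 under vehicle to -1.92 after dexamethasone in WT. In KO it went the other way, from -2.16 to -2.25, and was not called. Esrra, which encodes an oestrogen-related receptor, was at -0.11 in WT and -0.09 in KO (SE 0.12 each, adjusted p = 0.594 and 0.771).

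Other genes of oxidative metabolism were read from the same fit. None of 25 other nuclear subunits of complexes I to IV, of 16 ATP synthase subunits or of 35 assembly factors was called in any of the 7 comparisons (limma), and at an unadjusted p below 0.05 there were 0, 0 and 3 of them with dexamethasone in WT and 0, 2 and 1 in KO. Their medians in WT were -0.0014, 0.02 and -0.03, beside 0.04 for the 41 subunits. Of 13 citric acid cycle genes, Suclg2, the GDP-forming subunit of succinyl-CoA ligase, rose 1.30-fold with dexamethasone in WT (0.38, SE 0.10, adjusted p = 0.022). It was 1.52-fold lower in KO than in WT after dexamethasone (-0.60, SE 0.10, adjusted p = 0.0051), with 2.70, 2.50, 2.61 and 2.42 in WT and 1.90, 2.08, 2.07 and 1.78 in KO. Idh3g, another gene of the cycle, rose 1.17-fold with dexamethasone in the average of both genotypes (0.23, SE 0.07, adjusted p = 0.047). Ogdh, of the oxoglutarate dehydrogenase complex, fell 1.48-fold with dexamethasone in KO (-0.57, SE 0.15, adjusted p = 0.024). Among 14 regulators Twnk, the mitochondrial DNA helicase gene, fell 1.43-fold there (-0.51, SE 0.09, adjusted p = 0.0021). Polg, the mitochondrial DNA polymerase gene, was lower in KO than in WT after dexamethasone (-0.46, SE 0.11, adjusted p = 0.046), and Pprc1, a PGC-1-related coactivator gene, rose in the average of both genotypes (0.39, SE 0.09, adjusted p = 0.0060). The calls of these citric acid cycle genes and regulators are given from the main fit only. The mitochondrially encoded subunits were not analysed here.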

How the data were processed

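Quadriceps RNA of 16 mice was amplified, labelled with Cy3 and hybridised to one-colour Agilent 4x44K arrays. Scanner intensity was extracted with Feature Extraction 10.7.3.1 (grid build mm9), per the file headers, and the processed signal used here is already background-corrected by that software. The deposited value table holds log2 values made by the authors from the same arrays, with unstated scaling, and it served as an alternative. From the intensity, log2 values minus each array's 75th percentile were computed without control and outlier spots, and spots of a probe were averaged. A probe was kept if 4 or more of the 16 arrays had it well above background. Of 41174 probes 24844 had a symbol through their RefSeq accession (table of GRCm38.p6). The brightest probe stood for a gene; 5 members had 2 probes. Group means were compared with limma 3.58.1 (R 4.3.3), two-sided, over all 16 arrays, with Benjamini-Hochberg adjustment over 25193 features and a threshold of 0.05. The fit was tested on simulated data with independent arrays and no slide effect, so that test does not cover correlation within slides. Normexp (offset 50) used the median spot signal, because the files hold no mean signal. The sources do not say that replicate numbers pair animals, and the main fit did not use them. Of same-number pairs of arrays 5 of 24 correlated above 0.1, and of different-number pairs 34 of 72. Arrays that shared a slide always had different replicate numbers, so these counts cannot settle whether the numbers pair animals. The members and gene lists were chosen with earlier results of these data known. Named genes were those called, otherwise the 3 of smallest p, the extremes of each complex, and up to 4 called genes of each other list. The labels call the samples separate animals. The number of arrays limits the precision.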

Additional observations from a re-analysis of the deposited data

Results flagged for a closer look

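In 11 of 163 groups of 4 arrays, 1 array stood apart from the other 3 by more than Dixon's 95% critical value for the gap over the range, and chance gives about 1 in 20. In dexamethasone-treated WT, replicate 3 was high for 5 subunit genes. Ndufb7 was at 7.25 against 6.74 to 6.81 on the others, Ndufb10 at 7.77 against 7.33 to 7.39 and Ndufs1 at 7.23 against 6.92 to 6.94. Ndufs7 was at 7.76 against 7.40 to 7.46 and Cox7a1 at 8.54 against 7.90 to 7.98. This array also carried the highest neutrophil and erythroid marker medians, lay alone on its slide and was scanned apart, and the part of each in these levels was not tested.

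The other 6 were spread over other arrays. Ndufa9 was low on WT dexamethasone replicate 4, at 5.99 against 6.26 to 6.29, in the comparison in which it was called. Ndufa8 was low on WT vehicle replicate 3, at 5.43 against 5.78 to 5.85. Ndufb3 was low on KO dexamethasone replicate 4, at 5.63 against 6.02 to 6.04, and Ndufb10 was high on KO dexamethasone replicate 3, at 7.64 against 7.50 to 7.51. On KO vehicle replicate 4, Ndufa1 was high at 6.80 against 6.73 to 6.74 and Uqcrc1 at 7.52 against 7.32 to 7.36. None of 20 groups of complex or all-member medians held such an array.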

How the results depend on the processing

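The 2 calls with dexamethasone in WT became 0 with quantile normalization, normexp, the deposited values, no filter on dim probes, slide as a fixed block, and with either set of arrays left out that was chosen after seeing the data (2 arrays with raised neutrophil markers, 3 alone on a slide). The 2 calls averaged over genotypes became 0 in the same settings except the first of those sets, and also with median scaling. Leaving out 1 array gave 0 to 2 calls in both, and 0 to 1 for KO against WT averaged over treatments, which had 1 call (Sdhb) without WT vehicle replicate 3. That comparison had 1 call with quantile normalization, the deposited values (Cox6a2) and slide as a random block (Sdhb). KO against WT under dexamethasone had 1 (Sdha) with the random slide block and with the mean of probes. The replicate block, with numbers not known to pair the animals, gave 0 calls in WT and 0 averaged over genotypes. It gave 290 features for KO against WT under dexamethasone and 200 averaged over treatments.

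Medians named as moved here shifted by at least 0.1007, the SD of the subunit median between arrays of a group. Smaller shifts are left out, and some of them crossed 0. In WT these were -0.05 with quantile normalization, -0.03 with normexp and -0.06 in the deposited values. The median over the subunits moved in WT to 0.28 with median scaling and -0.0893 with slide as a fixed block, and in KO to -0.0213 with quantile normalization and -0.0033 in the deposited values. For KO against WT it moved to 0.0924 (median scaling) and 0.14 (normexp) under vehicle, to -0.14 (median scaling), 0.22 (normexp) and 0.16 (fixed slide block) under dexamethasone, and to 0.18 (normexp) averaged over treatments. It moved to -0.20 for the interaction with median scaling and to -0.0254 for averaged dexamethasone in the deposited values. Median scaling moved the median of all features in WT from -0.07 to 0.17 and the share of called features that were higher from 47.4% to 82.8%, and for KO against WT under dexamethasone that share from 52.3% to 10.2%.

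Some small differences changed sign. With median scaling, Cox8b was at 0.10 in WT and -0.0085 in the interaction. Cox7b was in WT at -0.0215 in the deposited values and -0.0174 with the fixed slide block, and in KO at -0.0305 with quantile normalization and -0.0033 in the deposited values, where Ndufa9 was at -0.0502. Ndufb2 under vehicle was at 0.0367 with normexp. For averaged dexamethasone, Sdhb was at -0.0032 with quantile normalization, and Uqcrq (-0.0016) and Cox6a2 (-0.0125) fell below 0 in the deposited values. For KO against WT averaged over treatments, Ndufa9 was at 0.0484 with normexp and 0.0145 with the fixed slide block, and Sdha at 0.10 with normexp and 0.0042 in the deposited values. The causes were not tested.

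Counts of called features outside 1.5 times the main count were 185 (normexp), 766 (fixed slide block) and 1414 (3 arrays out) against 2709 in WT, 1420 (median scaling), 404 (normexp) and 5028 (random slide block) against 2529 in KO, and 929 (normexp) against 4330 averaged. In the same order of median scaling, normexp, fixed and random slide block they were 38, 17, 21 and 433 against 65 for KO against WT under vehicle, 216, 49, 45 and 955 against 461 under dexamethasone and 167, 61, 71 and 983 against 337 averaged. Leaving out the 2 or the 3 arrays gave 232 and 148 under dexamethasone and 210 and 183 averaged. The interaction had 1 (deposited values), 6 (filter on all 16 arrays) and 321 (random slide block) against 0.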
